A study of Danio rerio with 10 samples.

Results

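The RNA of the nuclear and of the cytosolic fraction was compared in wild-type zebrafish (Danio rerio, AB strain) embryos at shield, the early gastrula stage at which the embryonic organizer becomes visible. The nuclear fraction was the washed pellet and the cytosolic fraction the supernatant of dechorionated, untreated embryos broken up in a lysis buffer, per the labels' protocols. Each fraction was sequenced as 1 stranded total RNA library after removal of ribosomal RNA, with 5909037 counts in the nuclear and 7990172 counts in the cytosolic library. The other 8 libraries of the study are the same fractions at the 64-cell, 256-cell and 1000-cell stages (early embryos) and at dome, a late blastula stage, and they entered only where named. Of the 16383 transcripts in the authors' table, 8723 had 10 or more counts in at least 1 of the 2 shield libraries and were described here. They were split by their mean level over the 6 early libraries, in counts per 1000000 counts of the library (CPM): 2169 had under 1 CPM, 2030 had 1 to 10 CPM and 4524 had over 10 CPM. With 1 library per fraction there is no replicate check, and no difference between the fractions at shield was tested.

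An early zebrafish embryo lives on messenger RNA that the mother laid down in the egg, and most of its own genes become active around the midblastula transition, after which many maternal messages are degraded. A newly made transcript starts in the nucleus, where it is spliced and processed before export, while an older message lies in the cytoplasm, where it is translated and broken down. Total RNA libraries also hold RNA without a poly(A) tail and unfinished transcripts. The early level of a transcript broadly separates messages the egg was rich in from those hardly detected before the embryo's genome was broadly active, but it is a level and not a proof of maternal origin.

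The counts are listed by Ensembl transcript ID, and 0 of these IDs could be paired with a gene name here, so the groups below are defined by level and stage and not by gene function. For the same reason the purity of the fractions could not be checked with nuclear or cytosolic marker genes, and no sequences are shown. Library totals over the study ran from 5909037 to 14311969, the nuclear shield library being the smallest. In the shield libraries 3 counts, taken as the floor, stood for 0.508 CPM in the nuclear and 0.375 CPM in the cytosolic library. Ratios are between shares of a library, so they leave unknown which part of a transcript's molecules lay in the nucleus. In such pools of embryos, fewer cells of a type and less RNA per cell cannot be told apart.

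Transcripts that were scarce in early embryos held a larger share of the nuclear than of the cytosolic library at shield. All transcripts under 1 CPM early, including those below the minimum of 10 counts, made up 4.90% of the nuclear counts (95% Wilson interval 4.89 to 4.92%) and 2.41% of the cytosolic counts (2.40 to 2.43%), a ratio of 2.03. Those of 1 to 10 CPM early made up 9.03% of the nuclear and 5.94% of the cytosolic counts, a ratio of 1.52. Those over 10 CPM early made up 86.1% of the nuclear and 91.6% of the cytosolic counts, a ratio of 0.939. These shares use every transcript of a class, so the count minimum does not enter them. They are shares of library totals, so their ratios between the fractions hold under that scaling. The intervals and the floor cover the counting error of reads alone, because each fraction has 1 library. The labels name no molecular identifiers that would separate PCR copies, so the intervals may be too narrow even for that error.

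In the early libraries the same class was a trace of the counts in both fractions. Transcripts under 1 CPM early held 0.0878% of the nuclear and 0.0946% of the cytosolic counts in 64-cell embryos, a ratio of 0.928. They held 0.117% of the nuclear and 0.0885% of the cytosolic counts in 256-cell embryos, and 0.129% of the nuclear and 0.0888% of the cytosolic counts in 1000-cell embryos. At dome they held 0.960% of the nuclear and 0.438% of the cytosolic counts, a ratio of 2.19. The share of the class in each fraction was thus several times higher at shield than at dome. By library totals its ratio between the fractions was close at both stages, 2.03 at shield and 2.19 at dome. TMM, the other scaling used below, would lower the shield ratio of every class and hardly move those of dome, so shield and dome would be less close. Its factors were 0.998 (nuclear) and 0.714 (cytosolic) at shield, and 1.03 and 1.03 at dome. The early shares are bounded by the rule that defined the class and serve only as a baseline.

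**Figure D1:**
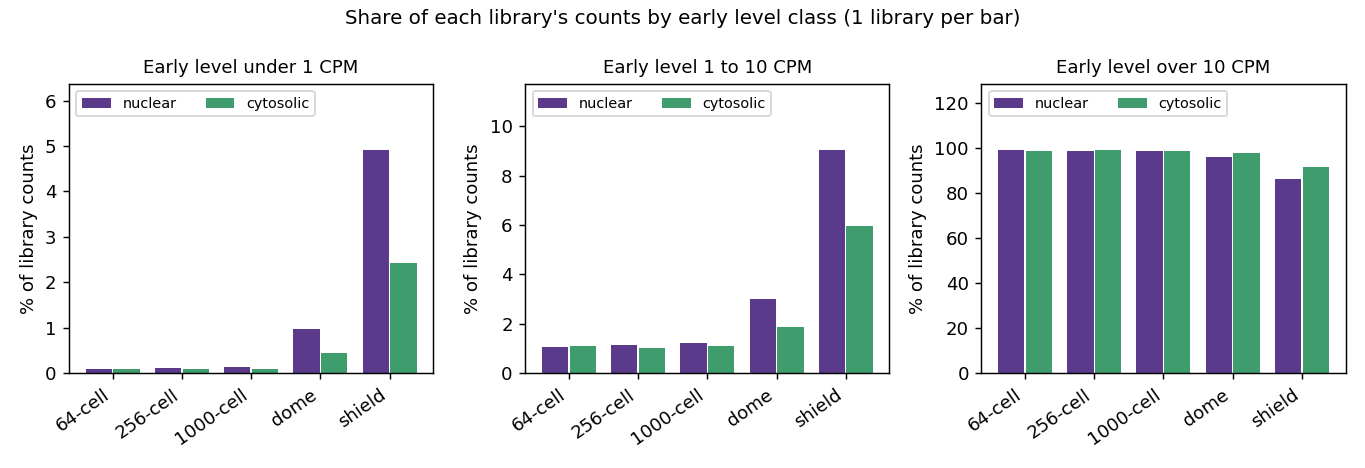
Share of each library's counts (percent, vertical axis) held by the 3 early level classes at 5 stages (horizontal axis), with the nuclear library at the left and the cytosolic library at the right of each pair and 1 library per bar. At shield the class under 1 CPM held 4.90% of the nuclear and 2.41% of the cytosolic counts.

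Transcript by transcript, the ratio leaned more to the nuclear library in classes of lower early level. The ratio was taken as log2 of nuclear over cytosolic CPM with edgeR's prior count of 2, so that 1 on this scale is a 2-fold difference. Its median was 2.60 in the class under 1 CPM early (interquartile range 0.99 to 3.91), 1.23 in the class of 1 to 10 CPM (0.04 to 2.58) and 0.02 in the class over 10 CPM (-0.69 to 0.84). Over all 8723 transcripts the median was 0.65. These values use library totals. TMM, a scaling that assumes that most transcripts keep their level between libraries, gave medians of 2.25, 0.77 and -0.46 in the same order, and 0.18 over all transcripts. Under TMM the class over 10 CPM early thus leaned to the cytosolic library, and under library totals it was centred near 0. The difference between the class under 1 CPM and the class over 10 CPM, 2.59 on the log2 scale, was 2.71 under TMM, since a factor for a whole library moves all classes nearly alike.

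A difference of 2-fold or more was seen in the nuclear direction in 3730 of the 8723 transcripts (42.8%) and in the cytosolic direction in 1183 (13.6%). The class under 1 CPM early had 1623 nuclear (74.8%) and 158 cytosolic transcripts (7.28%). The class of 1 to 10 CPM had 1121 nuclear (55.2%) and 263 cytosolic transcripts (12.96%). The class over 10 CPM had 986 nuclear (21.8%) and 762 cytosolic transcripts (16.8%), and 61.4% of it lay within 2-fold. The nuclear percentage was thus above that of all transcripts in both classes of lower early level and below it in the class over 10 CPM.

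The balance between the directions depended on the scaling. Under TMM 3003 transcripts (34.4%) were past 2-fold in the nuclear and 1913 (21.9%) in the cytosolic direction, so 61.1% of these were nuclear, against 75.9% under library totals. In the class over 10 CPM early, TMM gave 625 nuclear (13.8%) and 1359 cytosolic transcripts (30.04%), the opposite balance to that under library totals. The balance stayed nuclear under 1 CPM, with 1480 nuclear (68.2%) and 210 cytosolic transcripts (9.68%). The TMM factor of the shield libraries was 0.998 for the nuclear and 0.714 for the cytosolic library.

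**Figure D2:**
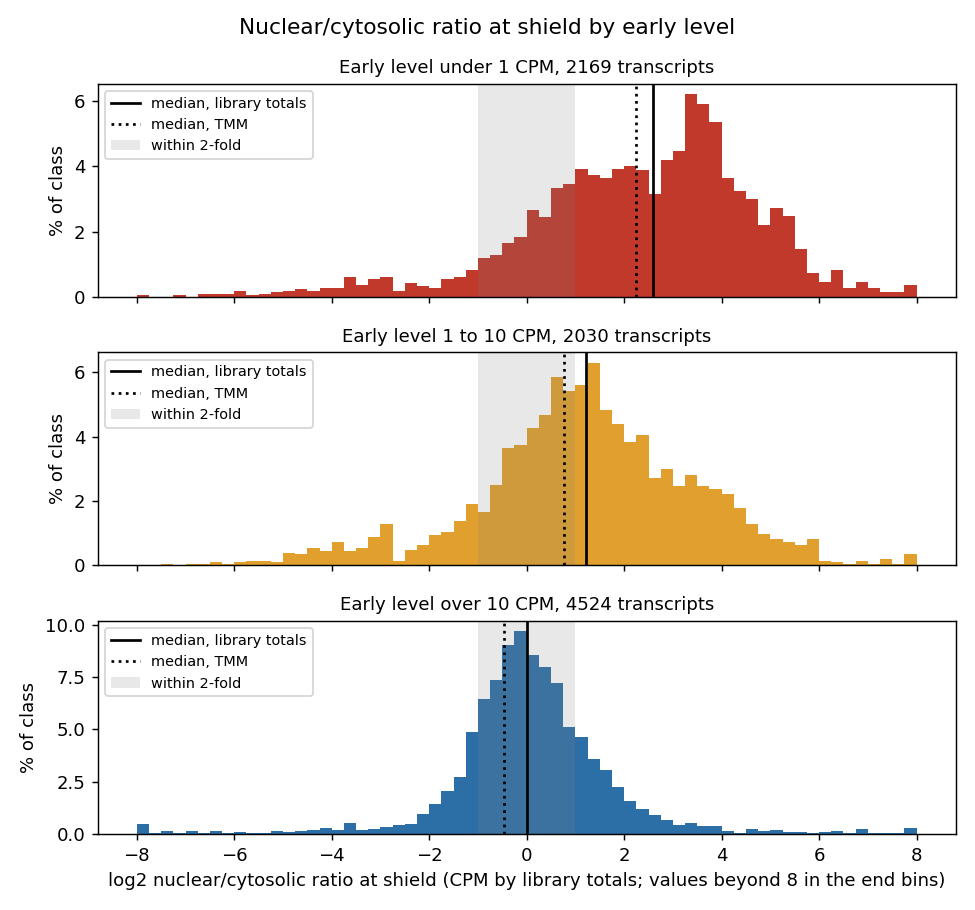
Distribution of the log2 nuclear/cytosolic ratio at shield (horizontal axis) in each early level class, as percent of the class (vertical axis), with medians under library totals (solid line) and TMM (dotted line) and the band within 2-fold in grey. The solid medians stand at 2.60, 1.23 and 0.02 from the lowest to the highest early level, and the dotted ones lie lower in each panel.

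Most differences of 16-fold or more were in transcripts with under 10 counts in one of the libraries. Such differences were nuclear for 795 transcripts (9.11%) and cytosolic for 194 (2.22%). By class the nuclear ones were 487 of 2169 under 1 CPM early, 211 of 2030 from 1 to 10 CPM and 97 of 4524 over 10 CPM. The cytosolic ones were 37, 51 and 106 of the same classes in the same order, so each class lay near the 2.22% of all. With 10 or more counts in both libraries 118 nuclear (1.84%) and 17 cytosolic transcripts (0.265%) were left. Of these, 48 nuclear and 0 cytosolic ones were among the 884 under 1 CPM early that met this minimum. The balance in the class over 10 CPM depended on the filter and the scaling. It was 97 nuclear and 106 cytosolic under library totals, 91 nuclear and 136 cytosolic under TMM, and 24 nuclear and 14 cytosolic under library totals with 10 or more counts in both.

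The minimum of 10 counts shapes these medians, because a transcript that reached it in 1 library only had to be higher there. Under 1 CPM early, 1121 of 2169 transcripts (51.7%) reached 10 counts in the nuclear library only and 164 (7.56%) in the cytosolic library only. In the class of 1 to 10 CPM, 411 did so through nuclear counts only and 251 through cytosolic counts only, and in the class over 10 CPM 120 through nuclear and 230 through cytosolic counts only. The cytosolic count was 0 for 542 transcripts of the class under 1 CPM that had 10 or more nuclear counts, so the size of their ratio depends on the prior count.

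With 10 or more counts required in both libraries, 6426 transcripts were left and the differences were smaller. The median log2 ratio was then 1.27 in the 884 transcripts under 1 CPM early, 1.13 in the 1368 of 1 to 10 CPM and 0.04 in the 4174 over 10 CPM. Past 2-fold there were 2112 nuclear (32.9%) and 650 cytosolic transcripts (10.1%), of which 520 nuclear and 27 cytosolic ones had under 1 CPM early (58.8% and 3.05% of their class). This filter removes the transcripts with the largest differences, as the first one favours them. A minimum of 2 for the mean CPM of both libraries, chosen after the data were seen, gave medians of 2.50, 1.34 and 0.03. A minimum of 10 counts in at least 1 dome library, which does not use the shield counts and was also chosen after the data were seen, gave 1.87, 0.81 and 0.

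Over all members the median decreased from band to band of early level up to 300 CPM. Among transcripts with 0 counts in all 6 early libraries the median log2 ratio at shield was 2.86 (770 transcripts), and above 0 and up to 0.1 CPM it was 2.81 (297). From 0.1 to 1 CPM it was 2.50 (1102 transcripts), from 1 to 3 CPM 1.41 (909) and from 3 to 10 CPM 1.10 (1121). From 10 to 30 CPM it was 0.32 (1058 transcripts), and it was 0.10 from 30 to 100 CPM (1347). In both highest bands, 100 to 300 CPM and over 300 CPM, it was slightly below 0, with -0.10 (1220 transcripts) and -0.09 (899). TMM gave 2.47 at 0 CPM and -0.57 over 300 CPM, with the sign turning to negative already from 10 to 30 CPM (-0.16). With 10 or more counts in both shield libraries the lowest bands had another order, with 1.05 at 0 CPM (285 transcripts), 1.84 above 0 and up to 0.1 CPM (103), 1.33 from 0.1 to 1 CPM (496), 1.18 from 1 to 3 CPM (544) and 1.08 from 3 to 10 CPM (824).

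At the class limits the medians on both sides were close. The median was 2.11 in the 165 transcripts from 0.8 to under 1 CPM early and 2.05 in the 170 from 1 to under 1.25 CPM. It was 0.80 in the 207 from 8 to 10 CPM and 0.65 in the 225 over 10 and up to 12.5 CPM. Transcripts just under the count minimum, with 8 or 9 counts in the library where they were higher, had a median of 1.77 (307 transcripts), and those with 10 or 11 had 1.43 (274).

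Within the class under 1 CPM early, the nuclear lean was largest in transcripts of low and middle level at shield. The bands of level used here take transcripts by the mean CPM of both shield libraries, from 1 CPM up, without the minimum of 10 counts. By this mean, the median log2 ratio was 2.48 from 1 to 3 CPM (842 transcripts), 2.83 from 3 to 10 CPM (697) and 2.72 from 10 to 30 CPM (327). It was 1.97 from 30 to 100 CPM (142 transcripts) and 0.69 from 100 to 1000 CPM (61), which TMM lowered to 1.49 and 0.21. The most abundant of the class, 3 transcripts with a mean over 1000 CPM, had a median of -0.53, and 0 of them was past 2-fold in the nuclear direction. The 61 and these 3 together held more of the class's counts in the cytosolic library than the others did, with 1.01% and 0.522% of all cytosolic counts.

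The class of 1 to 10 CPM early peaked at a higher level, and the class over 10 CPM had medians from -0.80 to 0.22 over the bands under library totals and from -1.24 to -0.26 under TMM. From 30 to 100 CPM at shield the median was 1.69 in the class of 1 to 10 CPM (229 transcripts) and 0.22 in the class over 10 CPM (1237). From 1 to 3 CPM at shield it was 0.57 in the class of 1 to 10 CPM (542 transcripts) and -0.80 in the class over 10 CPM (192), whose transcripts at this level had lost most of their early share. The 164 transcripts of the class over 10 CPM that exceeded 1000 CPM at shield had a median of -0.22 and held 33.5% of the nuclear and 42.9% of the cytosolic counts.

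**Figure D3:**
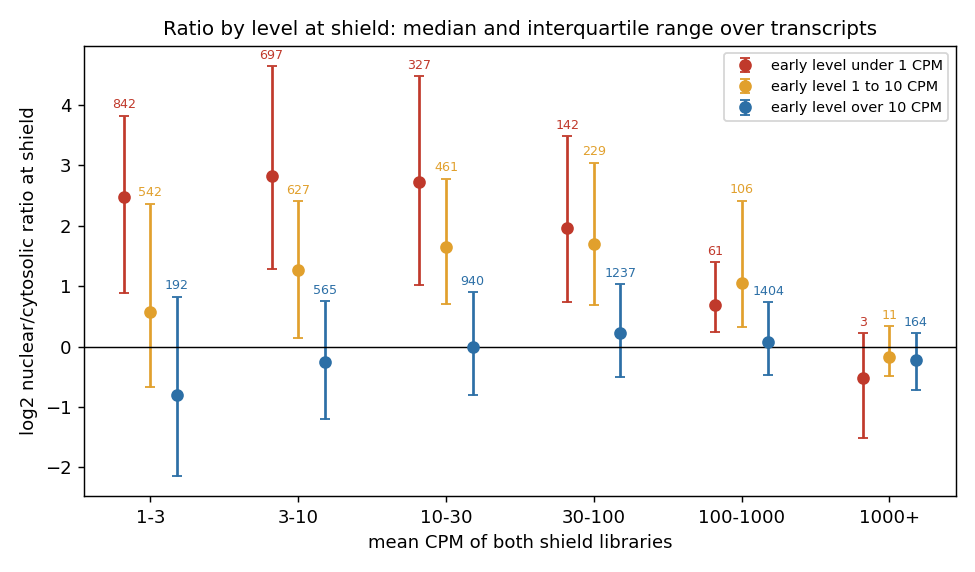
Median log2 nuclear/cytosolic ratio at shield (points, vertical axis) with the interquartile range over transcripts (bars) by mean CPM of both shield libraries (horizontal axis) and early level class, with the number of transcripts printed above each bar. The bands take transcripts by this mean alone, without the minimum of 10 counts. The class under 1 CPM drops to 0.69 in the band of 100 to 1000 CPM, against 2.72 in the band of 10 to 30 CPM.

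Transcripts under 1 CPM early were further split by their mean level at dome. The 1222 that were also under 1 CPM at dome had a median of 2.70 for the log2 ratio at shield, the 830 with 1 to 10 CPM at dome had 2.72 and the 117 over 10 CPM at dome had 1.44. With 10 or more counts in both shield libraries the order differed, with 0.91 (353 transcripts), 1.69 (429) and 1.28 (102). Summed over all transcripts without a count minimum, these groups had share ratios of 2.14, 2.21 and 1.76. The group over 10 CPM at dome thus had the lowest median by one filter and the lowest share ratio, but not the lowest median by the other.

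Of the transcripts past 2-fold in the nuclear direction at dome, 74.0% were so at shield too, beside 39.4% of all transcripts measured at both stages. Dome and shield share no library, so the values of both stages are separate measurements. Of 7743 transcripts with 10 or more counts in at least 1 library of both stages, 3053 (39.4%) were nuclear by 2-fold or more at shield and 1622 at dome. Among all 9137 transcripts measured at dome, 22.3% were so. Both lists shared 1201 transcripts, 39.3% of the shield list and 74.0% of the dome list. Of the 1302 transcripts under 1 CPM early, 1007 (77.3%) were nuclear at shield and 838 at dome. These lists shared 697, 69.2% of the shield list and 83.2% of the dome list. Most of this class was nuclear at each stage, so a large overlap follows from the class shares alone. The class also supplied 838 of the 1622 on the pooled dome list, which raises the pooled 74.0%. Of the 1939 from 1 to 10 CPM early, 1069 (55.1%) were nuclear at shield and 553 at dome. These lists shared 373, 34.9% of the shield list and 67.5% of the dome list. Of the 4502 over 10 CPM early, 977 (21.7%) were nuclear at shield and 231 at dome. These lists shared 131, 13.4% of the shield list and 56.7% of the dome list. Under TMM 65.6% of the pooled dome list were nuclear at shield, beside 30.6% of all 7743.

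Fewer transcripts were cytosolic at both stages. Of the same 7743 transcripts, 1050 (13.6%) were cytosolic by 2-fold or more at shield and 359 at dome. Among all 9137 measured at dome, 6.22% were so. Both lists shared 89 transcripts, 8.48% of the shield list and 24.8% of the dome list, beside the 13.6% of all. Under TMM the lists held 1745 at shield and 358 at dome and shared 119. These were 6.82% of the shield list and 33.2% of the dome list, beside 22.5% of all that were cytosolic at shield under TMM. Under library totals, opposite differences of 2-fold or more were seen in 142 transcripts nuclear at shield and cytosolic at dome. They were 39.6% of the dome cytosolic list, beside the 39.4% of all that were nuclear at shield. Another 100 were cytosolic at shield and nuclear at dome, 6.17% of the dome nuclear list, beside the same 13.6%. Across the 7743 transcripts the ratios of both stages had a Pearson correlation of 0.32 and a Spearman correlation of 0.38. Within the classes Pearson's r was 0.27 under 1 CPM (1302 transcripts), 0.19 from 1 to 10 CPM (1939) and 0.14 over 10 CPM (4502), each below the pooled value. These are correlations over transcripts of 2 pairs of libraries, which are not replicates.

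**Figure D4:**
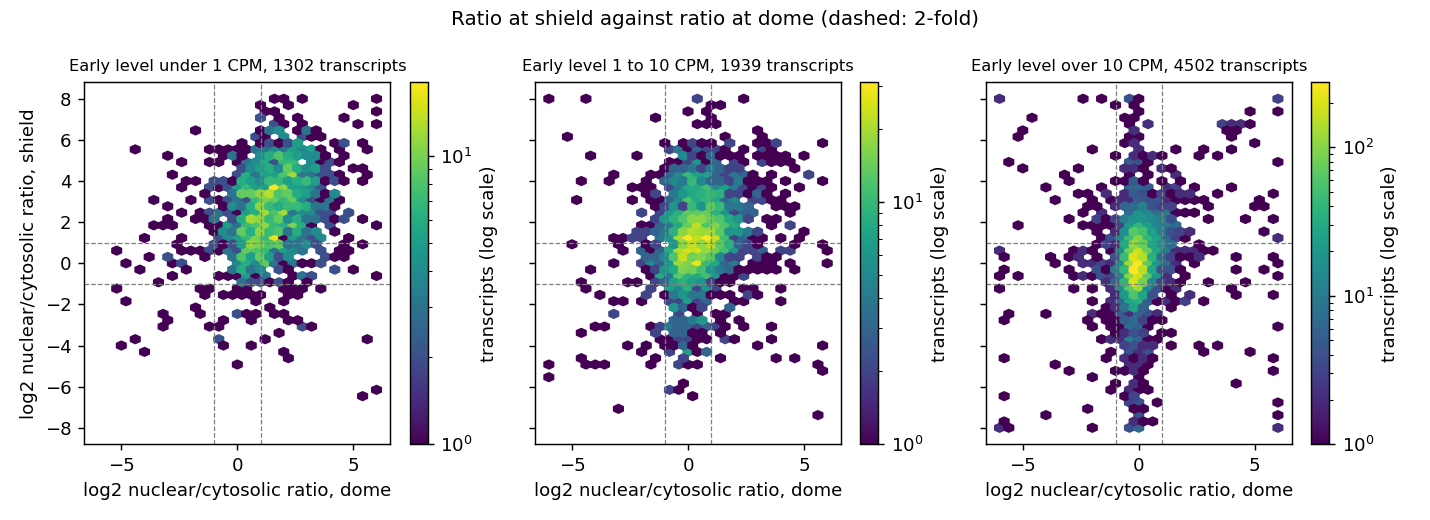
Log2 nuclear/cytosolic ratio at shield (vertical axis) against dome (horizontal axis) for transcripts measured at both stages, by early level class, with the number of transcripts per hexagon on a log colour scale, 2-fold limits dashed and values beyond the axes set to the edge. In the class under 1 CPM 697 of 1302 transcripts lie in the upper right field, past 2-fold nuclear at both stages, where 1007 were nuclear at shield and 838 at dome. In the class over 10 CPM 131 of 4502 lie there, with 977 nuclear at shield and 231 at dome.

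The spread between the fractions in the class over 10 CPM was wider at shield than at dome. The interquartile range of the log2 ratio was -0.69 to 0.84 at shield and -0.28 to 0.19 at dome, and 61.4% of the class lay within 2-fold at shield and 91.1% at dome. With 10 or more counts in both libraries the share within 2-fold was 65.9% at shield and 92.3% at dome. The difference between the class medians, under 1 CPM minus over 10 CPM, came to -0.57 (64-cell), -0.06 (256-cell), 0.15 (1000-cell), 1.41 (dome) and 2.59 (shield). With 10 or more counts in both libraries of a stage these were 0.55, 0.44, 0.40, 0.91 and 1.23 in the same order of stages. The class under 1 CPM then held only 85, 26 and 61 transcripts at the early stages, against 798 at dome and 884 at shield. Shield had the highest of 5 values by either filter. With 1 value per stage, an exact permutation test of the stage labels gives a one-sided p of 0.2, the smallest it can give. The test cannot decide the question, also because the early stages themselves set the classes and are not exchangeable with shield. The difference of shield from the other stages is therefore a description. The medians of each stage are over its own transcripts, by the first filter 1871 under 1 CPM early at dome and 2169 at shield. The share ratios by library totals, which use no count minimum, did not rise from dome to shield. They were 2.19 and 2.03 under 1 CPM early, and 0.983 and 0.939 over 10 CPM.

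By a rule of size, 4 transcripts are named, for each direction the one with the largest ratio, with the prior count of 2, in the class under 1 CPM and in the class over 10 CPM early. The rule required 10 or more counts in both shield libraries, 100 or more in the higher one and a 2-fold or larger difference in the same direction at dome. Of the 884 transcripts under 1 CPM early with 10 or more counts in both shield libraries, 240 met it in the nuclear and 6 in the cytosolic direction. Of the 4174 such transcripts over 10 CPM, 136 met it in the nuclear and 49 in the cytosolic direction. Past 2-fold at shield were 58.8% (nuclear) and 3.05% (cytosolic) of the 884, and 20.8% and 13.3% of the 4174. The numbers that met the rule therefore only give the pool for naming. How the authors' counting divided reads among overlapping models or near-identical copies is not given in the sources used here, so each of these values is uncertain in that respect.

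ENSDART00000136628 had the largest nuclear ratio among the 240 that met the rule in the class under 1 CPM early. It had 501 counts (84.8 CPM) in the nuclear and 11 counts (1.38 CPM) in the cytosolic library at shield, 61.6-fold higher in the nuclear library with a counting interval of 34.1 to 124 (95%, exact binomial). At dome it had 96 nuclear and 15 cytosolic counts. In the early libraries, from 64-cell to 1000-cell, it had 7, 5 and 13 nuclear counts and 7, 7 and 9 cytosolic counts. Its nuclear level at shield stood far above that of the other 9 libraries, while its cytosolic level was about the same at shield and at dome, 1.38 CPM and 1.29 CPM.

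ENSDART00000122671 was named for the nuclear direction in the class over 10 CPM early, to which it belonged through the 256-cell and 1000-cell libraries. It ranked first by the ratio with the prior count of 2 and 4th of 136 without it. It had 3813 counts (645 CPM) in the nuclear and 43 counts (5.38 CPM) in the cytosolic library at shield, a ratio of 120 (interval 88.8 to 166). Its nuclear level was 14.6 CPM (64-cell), 179 (256-cell), 1184 (1000-cell), 3764 (dome) and 645 (shield). Its cytosolic level was 2.03 CPM (64-cell), 96.6 (256-cell), 219 (1000-cell), 303 (dome) and 5.38 (shield). The nuclear library was the higher one at all 5 stages, and both fractions were highest at dome. The class over 10 CPM therefore also holds transcripts whose level climbed steeply before dome. The next 2 transcripts by the same ratio had much the same values, with 1420 nuclear against 15 cytosolic and 1239 against 13 counts at shield, and log2 ratios of 6.85 and 6.84 beside its 6.85. Without the prior count their ratios, 128 and 129, were above its 120.

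ENSDART00000100925 had the largest cytosolic ratio among the 6 that met the rule in the class under 1 CPM early. It had 437 counts (74.0 CPM) in the nuclear and 2619 counts (328 CPM) in the cytosolic library at shield, 4.43-fold higher in the cytosolic library (interval 4.004 to 4.92). At dome it had 192 nuclear and 519 cytosolic counts. At the 64-cell, 256-cell and 1000-cell stages it had 0, 6 and 31 nuclear counts and 0, 0 and 5 cytosolic counts. It was thus higher in the nuclear library at 1000-cell, with 4.05 nuclear against 0.427 cytosolic CPM, and higher in the cytosolic library at dome and at shield.

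ENSDART00000003998 had the largest cytosolic ratio among the 49 that met the rule in the class over 10 CPM early. It had 22 counts (3.72 CPM) in the nuclear and 1453 counts (182 CPM) in the cytosolic library at shield, 48.8-fold higher in the cytosolic library (interval 32.1 to 78.2). Its nuclear level was 62.8 CPM (64-cell), 105 (256-cell), 74.9 (1000-cell), 37.4 (dome) and 3.72 (shield). Its cytosolic level was 199 CPM (64-cell), 13.02 (256-cell), 80.1 (1000-cell), 144 (dome) and 182 (shield). Its cytosolic level at shield lay within the range of the earlier cytosolic libraries, and its nuclear level lay below that of every earlier nuclear library. At 256-cell the nuclear library was the higher one.

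**Figure D5:**
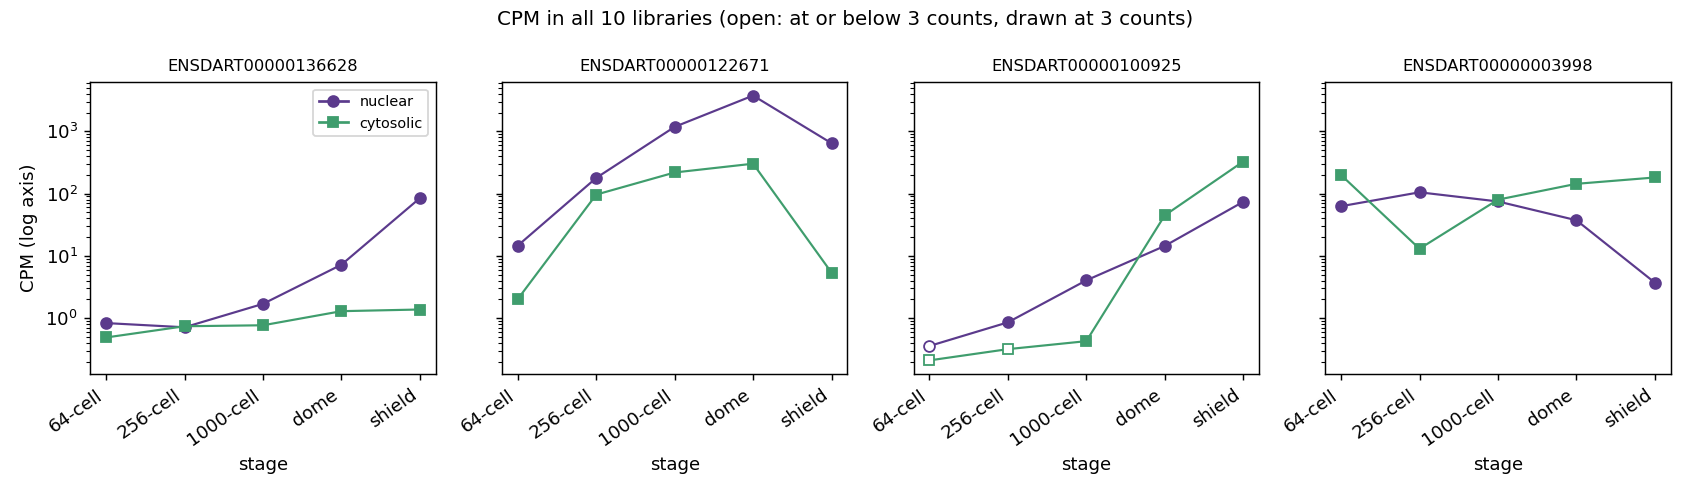
CPM (log axis, vertical) of the 4 named transcripts in all 10 libraries by stage (horizontal axis), nuclear as circles and cytosolic as squares, 1 library per point, with open symbols for values at or below 3 counts, drawn at that floor. ENSDART00000122671 lies above in nuclear RNA at each of the 5 stages, and the lines of the others cross at least once.

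The 10 most abundant transcripts of each shield library belonged with 1 exception to the class over 10 CPM early. They held 8.68% of the nuclear and 15.8% of the cytosolic counts, and both lists shared 7. The single most abundant transcript of the cytosolic library held 0.484% of the nuclear and 4.93% of the cytosolic counts (log2 ratio -3.35). The single most abundant transcript of the nuclear library held 1.85% of the nuclear and 1.71% of the cytosolic counts. It stood at 67.7 CPM in the early libraries and at 6615 nuclear and 3382 cytosolic CPM at dome. Of the 100 most abundant of the nuclear library 90 had over 10 CPM early, 8 had 1 to 10 CPM and 2 had under 1 CPM, and in the cytosolic library 93, 5 and 2. Both lists of 100 shared 68 transcripts at shield, against 86 (64-cell), 80 (256-cell), 71 (1000-cell) and 77 (dome). Without the 13 transcripts that made up both lists of 10, the class under 1 CPM held 5.40% of the nuclear and 2.90% of the cytosolic counts, a ratio of 1.86.

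Some transcripts with many counts in one shield library had none in the other. Among the 4494 transcripts with 100 or more nuclear counts, 76 (1.69%) had 0 cytosolic counts. By class these were 35 of 515 under 1 CPM early, 15 of 711 from 1 to 10 CPM and 26 of 3268 over 10 CPM. Among the 4088 with 100 or more cytosolic counts, 54 (1.32%) had 0 nuclear counts. By class these were 6 of 223 under 1 CPM, 6 of 418 from 1 to 10 CPM and 42 of 3447 over 10 CPM. The highest count beside a 0 was 2992 for nuclear and 4342 for cytosolic RNA. At dome the pattern was kept by 7 of the 76 and 1 of the 54. Over all transcripts at dome, 47 of the 5443 with 100 or more nuclear counts had 0 cytosolic counts. The reverse was seen in 25 of the 4904 with 100 or more cytosolic counts. Of the 76, 21 had 100 or more and 25 had 0 cytosolic counts at dome, and of the 54, 39 had 100 or more and 10 had 0 nuclear counts there. For these last numbers no share over all transcripts was taken. The part that the division of reads among models of one gene played in these zeros was not tested.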

How the data were processed

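The authors deposited whole-number counts per Ensembl transcript, 1 column for each of 10 libraries. The submitters' processing notes name Trimmomatic 0.27, STAR 2.6.0a, StringTie and the genome build Zv9. The annotation release, the strand setting and the way the counts were formed are not given in the sources used here. Columns were matched to samples by stage and fraction, with 0 columns unmatched. The meaning of the 2 that closes each column's name is not given in the labels.

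CPM were counts over the library total. Log2 ratios used edgeR's formula with a prior count of 2. TMM factors came from all 10 libraries, over 9568 transcripts with 10 or more counts in at least 2, and were checked against edgeR. The log2 CPM were also checked against edgeR, and the log2 ratios by library totals were tested on simulated counts. Members were transcripts with 10 or more counts in at least 1 shield library. Shares carry 95% Wilson intervals and single ratios exact binomial ones. The members, classes, naming rule and alternatives were chosen with earlier results of these data known. Alternatives covered scaling, prior count, count minimum, equal depth and the early columns used. Gene lists were not used, since 0 IDs matched a name. Python 3.11.15, NumPy 2.4.6, pandas 2.3.3, SciPy 1.17.1 and matplotlib 3.10.9 were used.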

Additional observations from a re-analysis of the deposited data

Results flagged for a closer look

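By 1 of the 2 count filters, the ratio of the class under 1 CPM early leaned the other way at 2 early stages than at shield. Its median log2 ratio was 2.60 at shield, against -0.65 at 64-cell and -0.14 at 256-cell, with 10 or more counts in at least 1 library of the stage. With 10 or more counts in both libraries it was 0.48 at 64-cell (85 transcripts) and 0.37 at 256-cell (26). The early direction thus depended on the filter, and these early libraries also define the class. Depth enters too, since 10 counts are a lower CPM in the deeper library. The cytosolic library was the deeper one, with 14311969 against 8403209 counts at 64-cell and 9445461 against 7010646 at 256-cell, as it also was at shield. ENSDART00000100925 had a log2 ratio of -2.14 at shield, against 2.37 at 256-cell and 2.75 at 1000-cell, where it rested on 6 nuclear against 0 cytosolic and 31 against 5 counts. ENSDART00000003998 had -5.53 at shield, against 2.99 at 256-cell, with 737 nuclear and 123 cytosolic counts there. As a stage has a single library of each fraction, these differences between stages were not tested.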

How the results depend on the processing

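The number of transcripts past 2-fold in the cytosolic direction, 1183, moved with the scaling and the count minimum, with 1913 under TMM over 10 libraries, 1960 under TMM over both shield libraries and 2004 under median-of-ratios. The nuclear number, 3730, also moved under these, to 3003, 2949 and 2923, though by less than 1.5 times, a limit relative to its larger size. Its share of the members was 34.4% under TMM over 10 libraries, against 42.8% under library totals. These scalings moved the median over all transcripts by -0.47, -0.51 and -0.53. With 50 or more counts in at least 1 library there were 2315 nuclear and 755 cytosolic, out of fewer transcripts. With 10 or more in both there were 2112 nuclear (32.9% of 6426) and 650 cytosolic (10.1%). The shares under this filter were thus lower too, against 42.8% and 13.6% of the 8723 members. The difference between the medians of the class under 1 CPM and the class over 10 CPM, 2.59, was 1.23 with 10 or more counts in both libraries, 1.87 with the minimum set on the dome libraries (chosen after seeing the data) and 2.80 with a prior count of 0.5. Under the other 9 of its 12 alternatives it stayed within its interval of 2.43 to 2.80 (from 95% binomial intervals of both medians over transcripts). These 9 included equal depth and leaving out each early stage from the classes. That interval treats the transcripts of 1 pair of libraries as independent and holds no variation between libraries. The difference was above 0 under all 12. The class over 10 CPM early had a median from -0.52 to 0.04 over 10 alternatives, so its direction depended on the scaling. No paired analysis was possible because each stage has 1 library per fraction. Depth limits the class under 1 CPM most, where 542 members had 0 cytosolic counts.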

Other observations

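Each fraction was also set against the same fraction at dome, for the 7291 members with a mean of at least 1 CPM at dome. As members they also had 10 or more counts in at least 1 shield library. Transcripts of dome that were lost by shield are therefore left out, which favours higher values at shield. In the class under 1 CPM early (947 transcripts), the median log2 difference, shield minus dome, was 1.58 for nuclear and 0.23 for cytosolic RNA under library totals, and 1.62 and 0.70 under TMM. In the class of 1 to 10 CPM (1848 transcripts) it was 0.86 for nuclear and -0.02 for cytosolic RNA under library totals, and 0.90 and 0.47 under TMM, so the sign in the cytosolic fraction depended on the scaling. In the class over 10 CPM (4496 transcripts) it was -0.65 for nuclear and -0.84 for cytosolic RNA under library totals, and -0.61 and -0.32 under TMM, so both fractions were lower at shield by either scaling, and which one was lower by more depended on it. The nuclear difference exceeded the cytosolic one in both classes of lower early level under either scaling. The count minimum itself favours this order. Over all members it was met through nuclear counts only by 1121 under 1 CPM and 411 from 1 to 10 CPM. Through cytosolic counts only it was met by 164 and 251. A version with 10 or more counts in both shield libraries was not made. None of this was tested, as a stage has a single library of each fraction.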
